A study of Mus musculus with 6 samples.

Results

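The genes described here are 9 genes of early B cell development, namely Vpreb1, Vpreb3, Igll1, Rag1, Rag2, Dntt, Ebf1, Pax5 and Il7r. They were taken by name from the 54532 genes of a table of bone RNA levels, and all 9 were found in it. Levels are in FPKM, a read measure corrected for exon length and library size. The knockout group (KO) held 3 libraries of bone RNA from mice with the genotype MIR29cb2-/-, which lack the miR-29cb2 microRNA cluster, and the wild-type group (WT) held 3 libraries. All mice were female, 16 weeks old and of strain C57BL/6J. How the deletion was made, which bone was taken, whether marrow was flushed out and whether each library came from its own animal are not stated in the labels, so p-values measure the spread between libraries, which may be technical in part.

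B cells arise in the marrow from lymphoid progenitors. Pro-B cells join the gene segments of the immunoglobulin heavy chain, using the RAG1 and RAG2 recombinase and the nucleotide-adding enzyme TdT, and pre-B cells then show the new heavy chain on their surface with a surrogate light chain made of VpreB and lambda5. EBF1 and PAX5 are transcription factors that set and hold B cell identity, and the interleukin 7 receptor carries the growth signal that mouse B cell precursors need. Surrogate light chain genes are switched off as cells mature, while genes such as Cd79a stay on, so that levels of both kinds of gene tell B cell stages apart.

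The deleted cluster encodes miR-29b-2 and miR-29c, whose main products are shown because the knockout removes them from this locus. RefSeq (GRCm38.p6, chromosome 1, plus strand) gives the mature forms below, with the seed, bases 2 to 8, in capitals.
mmu-miR-29b-3p: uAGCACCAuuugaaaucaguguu
mmu-miR-29c-3p: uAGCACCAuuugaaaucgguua
The seed is the same in both, and miR-29b-3p is also encoded by Mir29b-1 on chromosome 6, outside the deleted cluster. Mir29a, also on chromosome 6, encodes miR-29a-3p, which has the same seed. The DNA letters that pair with the seed, TGGTGCT, were looked for in the annotated 3′ UTRs of GENCODE transcripts. Of the 9 genes, 0 carried a match, against 18.8% of the 11685 tested genes that have an annotated 3′ UTR. The longest of these UTRs was that of Pax5, with 6749 bases, and the shortest was that of Igll1, with 144.

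Bone and B cell markers were both present in the libraries. The sum over 9 bone cell genes, such as Col1a1 and Bglap, was 753 to 1573 FPKM in KO and 1949 to 3537 FPKM in WT, and the B cell gene Cd79a stood at 72.9 to 137 FPKM in KO and 95.1 to 121 FPKM in WT. Divisors of 16578350 to 20596651 reads per library were recovered from the FPKM steps. KO replicate 1 and WT replicate 2 stood apart. Set against its group mean, each of these libraries read high for genes with short exons and low for long ones: rank correlation of that deviation with exon length was -0.45 in KO replicate 1 and -0.42 in WT replicate 2, against 0.18 to 0.41 in the other 4. All genes with a mean of at least 1 FPKM, 13619 in number, were fitted together with limma on log2(FPKM + 1), with Benjamini-Hochberg adjusted p over all of them. The median log2 change over all genes was 0.06.

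The 2 surrogate light chain genes fell in KO bone, the other 7 genes did not pass the test, and no gene rose. Vpreb1 was at 16.5% and Igll1 at 18.9% of the WT mean. Of all genes tested, 5.16% were called, with 3.82% called lower and 1.34% called higher. Of the 9 genes, 8 had a log2 change below 0, against 40.9% of all genes, and the median was -0.67. In 5 of the 9, Vpreb1, Igll1, Rag2, Dntt and Ebf1, every KO library lay below every WT library, against 13.7% of all genes. In 0 of the 9 did every KO library lie above, against 14.7% of all genes. The 9 levels summed to 54.3 to 93.5 FPKM in KO and 104 to 164 FPKM in WT. In whole tissue, fewer cells of a type and less RNA per cell cannot be told apart. Markers of other cells moved between the same groups. Of 9 bone cell genes 2 fell, Dmp1 and Sp7, and 0 or 1 were called lower with 1 library left out, where Dmp1 was lost each time and Sp7 each time but without WT replicate 3. Of 7 adipocyte genes 6 fell, Plin1, Cfd, Cidec, Adipoq, Lpl and Fabp4, with list sums of 87.9 to 163 FPKM in KO and 520 to 794 FPKM in WT. With 1 library left out, 2 to 5 of them were called, 2 of them without WT replicate 1 and 3 without KO replicate 2. Plin1, at 0.137 to 0.506 FPKM in KO, passed the filter on low values only through its WT levels. The part of these cells in the results below was not tested.

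**Figure D1:**
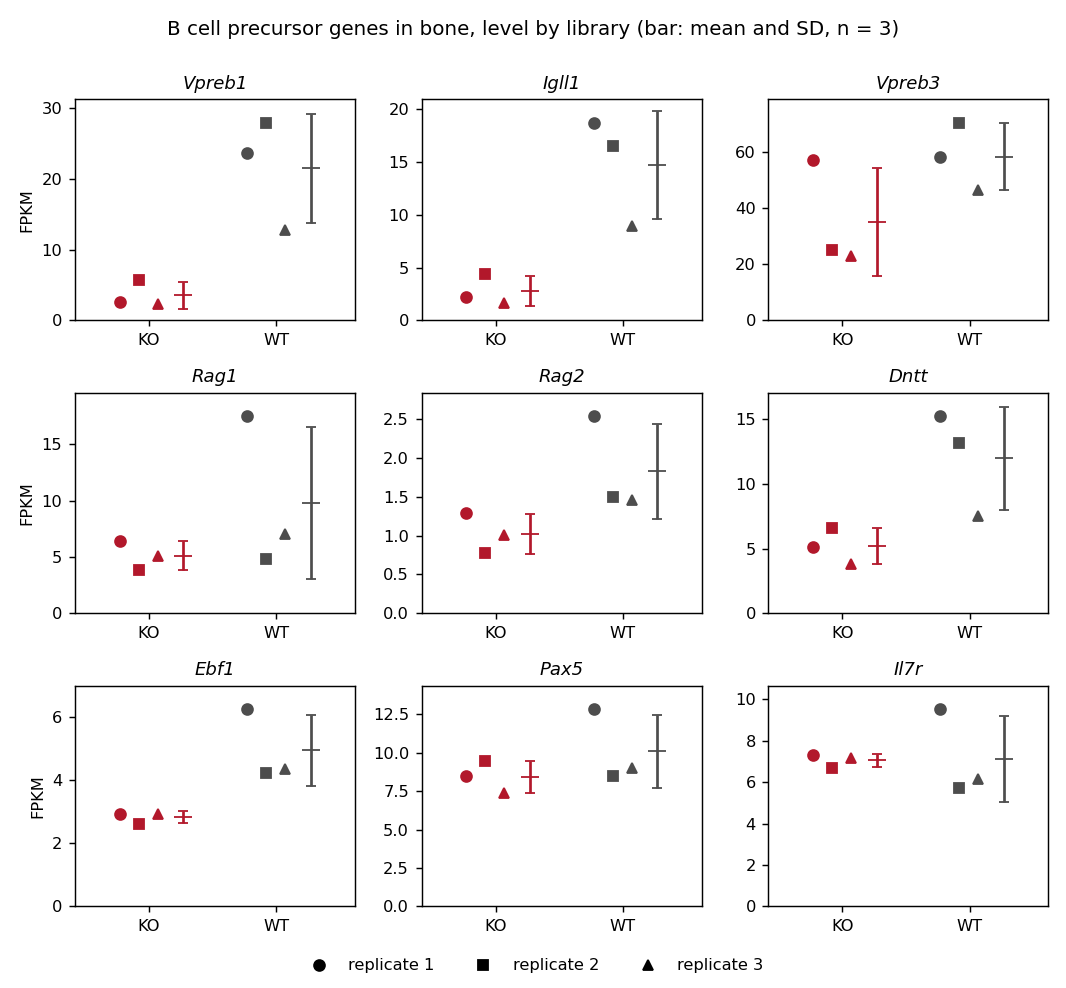
Level of each of the 9 genes in FPKM (vertical axes, from 0) in the 3 KO libraries (red, left) and the 3 WT libraries (grey, right), with marker shapes for replicates and a bar for the mean and SD. For Vpreb1 the KO libraries sit between 2.27 and 5.75 FPKM, all below the WT libraries at 12.8 to 27.9 FPKM, while the groups overlap for Pax5 and Il7r.

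Vpreb1 encodes VpreB1, the variable-like part of the surrogate light chain. It lies on the minus strand of chromosome 16 from 16868403 to 16870843 (mm10, ENSMUSG00000059305). In KO libraries 1, 2 and 3 it stood at 2.62, 5.75 and 2.27 FPKM, against 23.7, 27.9 and 12.8 FPKM in WT libraries 1, 2 and 3. The groups did not overlap, KO replicate 2 was the highest of its group and WT replicate 3 the lowest. Means were 3.54 ± 1.92 FPKM in KO and 21.5 ± 7.78 FPKM in WT (SD, n = 3 each). The log2 change was -2.32 (95% interval -3.17 to -1.47, limma adjusted p = 0.022). The levels rest on 52, 120 and 47 reads in KO and 586, 653 and 278 reads in WT. For the lowest of these, 47 reads, the exact 95% Poisson interval is 34.5 to 62.5 reads, which covers counting error alone.

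Igll1 encodes lambda5, the constant-like part of the surrogate light chain. It is the next annotated protein-coding gene to Vpreb1, on the same strand (chromosome 16, 16860671 to 16863985, ENSMUSG00000075370). Its level was 2.20, 4.43 and 1.68 FPKM in KO libraries 1, 2 and 3, against 18.7, 16.5 and 8.91 FPKM in WT libraries 1, 2 and 3. As for Vpreb1, KO replicate 2 was the highest KO library, WT replicate 3 the lowest WT library, and the groups did not overlap. Means were 2.77 ± 1.46 FPKM in KO and 14.7 ± 5.13 FPKM in WT (SD, n = 3 each), with a log2 change of -2.06 (95% interval -2.86 to -1.26, limma adjusted p = 0.0254). Reads numbered 309 over the KO libraries and 1877 over the WT libraries. The ratio of Vpreb1 to Igll1 FPKM was 1.19 to 1.35 in KO and 1.27 to 1.69 in WT, so the groups overlapped in this ratio.

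Neither call held in every subset of libraries. The Vpreb1 call was lost without KO replicate 1 (limma adjusted p = 0.0682), WT replicate 1 (0.0904) or WT replicate 2 (0.0563), with log2 changes of -2.19, -2.22 and -2.10. The Igll1 call was lost without those libraries and without KO replicate 3, with limma adjusted p of 0.0549 to 0.0939. Without both libraries that stood apart, the log2 changes were -1.98 for Vpreb1 and -1.87 for Igll1 (limma adjusted p = 0.0879 and 0.104). With array weights, which give libraries unequal weight, the log2 change of Vpreb1 was -1.44 and that of Igll1 -1.27, and both passed. That setting called far more of all 13619 genes, 1551 higher and 1803 lower, against 183 and 520 as reported. Passing with array weights, here and below, is to be read beside these counts.

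Vpreb2 is a close copy of Vpreb1, and is named here although it is not one of the 9 genes. The coding sequences have 429 bases each and are 97.9% identical, and 18.8% of the 50-base windows of Vpreb1 transcripts also occur in Vpreb2. How the authors' counting dealt with such reads is not given in the sources used here, so the split between the copies is uncertain. Vpreb2 stood at 0.795, 0.681 and 0.457 FPKM in KO libraries 1, 2 and 3 and at 5.31, 7.22 and 2.04 FPKM in WT libraries 1, 2 and 3. It passed the filter on low values only through its WT levels, fell by 1.72 on the log2 scale (limma adjusted p = 0.0404), and did not overlap between groups. The call was lost without any single library except WT replicate 3 (limma adjusted p = 0.0751 to 0.136), without KO replicate 1 and WT replicate 2 together (0.104), and with voom on the recovered reads (0.0608). Reads of both copies together came to 62, 129 and 53 in KO and to 669, 760 and 306 in WT. The share counted for Vpreb2 was 6.98% to 16.1% in KO and 9.15% to 14.1% in WT. The lambda light chain constant genes Iglc1, Iglc2 and Iglc3, which resemble the coding sequence of Igll1 (71.0% to 81.3% identity), share 0 of its 50-base windows.

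The promoters of the 3 surrogate light chain genes are shown because these genes were called lower in KO and 2 of them are copies. The split of reads between the copies is uncertain, as given above, so Vpreb2 is not separate evidence of a fall. Each RefSeq window (GRCm38.p6) runs from 250 bases before to 50 after a start site, and capitals mark the E-boxes CAGGTG and CAGCTG, searched on both strands. The RefSeq start of Vpreb1 lies inside the longer GENCODE span given above. They lie at chr16:16869206-16869505 (Vpreb1, minus strand), chr16:16863936-16864235 (Igll1, minus strand) and chr16:17980315-17980614 (Vpreb2, plus strand).
Vpreb1: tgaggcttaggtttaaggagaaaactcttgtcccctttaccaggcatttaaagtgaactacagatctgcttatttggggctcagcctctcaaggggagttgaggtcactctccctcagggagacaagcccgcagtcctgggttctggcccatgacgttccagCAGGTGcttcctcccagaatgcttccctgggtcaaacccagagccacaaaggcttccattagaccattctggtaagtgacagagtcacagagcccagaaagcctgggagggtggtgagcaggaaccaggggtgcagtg
Igll1: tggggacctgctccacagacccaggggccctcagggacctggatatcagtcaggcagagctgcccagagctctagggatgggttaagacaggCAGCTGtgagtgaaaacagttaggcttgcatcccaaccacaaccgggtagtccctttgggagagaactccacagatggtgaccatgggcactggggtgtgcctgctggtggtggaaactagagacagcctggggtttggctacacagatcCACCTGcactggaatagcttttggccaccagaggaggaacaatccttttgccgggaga
Vpreb2: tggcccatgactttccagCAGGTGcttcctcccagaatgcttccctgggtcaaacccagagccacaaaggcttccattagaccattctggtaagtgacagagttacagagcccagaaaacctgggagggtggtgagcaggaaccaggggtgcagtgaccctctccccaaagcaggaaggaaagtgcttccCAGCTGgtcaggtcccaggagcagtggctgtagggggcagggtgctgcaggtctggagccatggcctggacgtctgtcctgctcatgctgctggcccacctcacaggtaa
Vpreb1 held 1 CAGGTG, starting 88 bases before the start site, in a stretch that recurs in the Vpreb2 window around its own CAGGTG. Vpreb2 also held 1 CAGCTG. Igll1 held 1 CAGCTG and, 8 bases before its start site, the reverse complement of CAGGTG. Of all 32851 windows, 20.2% hold CAGGTG and 16.3% hold CAGCTG, so such matches are common. The core that EBF1 is known to bind, TCCC and GGGA with 2 bases between them, was in 0 of the 3 windows and in 0.904% of all windows. Of the windows of the other 7 genes, only that of Rag1 held either E-box, with 1 of each. A match of letters does not show that a factor binds there. Only exact letters were searched, so the lack of a match does not show that a factor does not bind.

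Within 200 kb of Vpreb1, 4 annotated genes other than Vpreb1 itself passed the filter on low values, of which Igll1 was the only one called. Top3b, a DNA topoisomerase gene whose span overlaps Vpreb1 on the opposite strand, averaged 7.12 FPKM in KO and 5.76 FPKM in WT (log2 change 0.27). Ppm1f, a phosphatase gene, had a log2 change of 0.50. Neither passed (limma adjusted p = 0.238 for Top3b and 0.170 for Ppm1f). Because the use of strand is not given in the sources used here, reads of the overlap with Top3b cannot be assigned.

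Vpreb3 encodes a protein of the same family that associates with newly made heavy chains in the endoplasmic reticulum. It lies on chromosome 10 (75943057 to 75949657, plus strand, ENSMUSG00000000903) and was the most abundant of the 9 genes in both groups. It had 57.2, 25 and 23.0 FPKM in KO libraries 1, 2 and 3, against 58.0, 70.2 and 46.5 FPKM in WT libraries 1, 2 and 3. KO replicate 1 lay within the WT range and the other KO libraries below it. The log2 change was -0.82 (95% interval -1.64 to 0.003, limma adjusted p = 0.244). With 859 exon bases it is the shortest of the 9 genes. KO replicate 1 and WT replicate 2, each the highest of its group here, are the libraries that read high for short transcripts. Without KO replicate 1 and WT replicate 2 the log2 change was -1.08 and the gene passed (limma adjusted p = 0.0407). With array weights it passed at -0.92 (limma adjusted p = 0.0132). With the length trend removed the log2 change was -0.77 and the gene did not pass (limma adjusted p = 0.157). The part of exon length in the Vpreb3 level was not tested.

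Rag1 and Rag2 encode the recombinase that cuts DNA at immunoglobulin and T cell receptor segments. Rag1 (chromosome 2, 101638282 to 101649501, minus strand) stood at 6.40, 3.83 and 5.06 FPKM in KO libraries 1, 2 and 3, against 17.5, 4.85 and 7.01 FPKM in WT libraries 1, 2 and 3. WT replicate 1 was far above the other libraries, and the groups overlapped. The log2 change was -0.67 (95% interval -1.63 to 0.30, limma adjusted p = 0.425), and it was -0.19 without WT replicate 1 and -1.17 without KO replicate 1 and WT replicate 2. Rag2 (chromosome 2, 101624718 to 101632529, plus strand) was the lowest of the 9 genes in both groups. It had 1.29, 0.771 and 1.01 FPKM in KO libraries 1, 2 and 3 and 2.54, 1.5 and 1.46 FPKM in WT libraries 1, 2 and 3. All KO libraries lay below all WT libraries, and the log2 change of -0.47 did not pass (95% interval -0.93 to -0.01, limma adjusted p = 0.229). It passed with array weights, at -0.51 (limma adjusted p = 0.0329). The ratio of Rag1 to Rag2 FPKM was 4.97 to 5 in KO and 3.24 to 6.90 in WT. The span of B230118H07Rik, on the minus strand, covers both Rag genes, so reads in shared parts cannot be assigned.

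Dntt encodes TdT, the polymerase that adds nucleotides without a template at the joints of recombined segments. It lies on chromosome 19 (41029275 to 41059525, plus strand, ENSMUSG00000025014). Its level was 5.10, 6.61 and 3.83 FPKM in KO libraries 1, 2 and 3, against 15.2, 13.2 and 7.53 FPKM in WT libraries 1, 2 and 3. The groups did not overlap, KO replicate 3 and WT replicate 3 were the lowest of their groups, and the KO mean was 43.2% of the WT mean. The log2 change was -1.04 (95% interval -1.69 to -0.40) and did not pass (limma adjusted p = 0.0795). It passed without WT replicate 3, at -1.32 (limma adjusted p = 0.0426). Of the 9 genes, Dntt was the one whose FPKM steps gave no whole reads, as for many genes of chromosome 19, so it was not tested on reads. With array weights its log2 change was -0.48.

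Ebf1 starts the B cell program and Pax5 commits cells to it. Ebf1 (chromosome 11, 44617317 to 45008091, plus strand) stood at 2.92, 2.62 and 2.93 FPKM in KO libraries 1, 2 and 3, against 6.24, 4.22 and 4.36 FPKM in WT libraries 1, 2 and 3. The KO libraries lay close together, all below the WT libraries, and WT replicate 1 was the highest. Means were 2.82 ± 0.178 FPKM in KO and 4.94 ± 1.13 FPKM in WT (SD, n = 3 each), with a log2 change of -0.62 (95% interval -0.98 to -0.26, limma adjusted p = 0.0685). Ebf1 passed with the length trend removed (-0.65, limma adjusted p = 0.0374), with array weights (-0.61, limma adjusted p = 0.00724) and with limma's voom on the recovered reads (-0.79, limma adjusted p = 0.0447). Ebf1 is also known to be active in fat and stromal cells. Of the adipocyte genes 6 fell, as given above, and their part in the Ebf1 level was not tested.

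Pax5 (chromosome 4, 44524757 to 44710487, minus strand) had 8.46, 9.47 and 7.39 FPKM in KO libraries 1, 2 and 3, against 12.8, 8.49 and 9.01 FPKM in WT libraries 1, 2 and 3. The groups overlapped, with WT replicate 1 the highest library. Its log2 change was -0.22 (95% interval -0.63 to 0.19, limma adjusted p = 0.542). Il7r, the alpha chain of the interleukin 7 receptor (chromosome 15, 9505788 to 9530176, minus strand), had 7.31, 6.69 and 7.15 FPKM in KO libraries 1, 2 and 3, against 9.53, 5.74 and 6.13 FPKM in WT libraries 1, 2 and 3. All KO libraries lay inside the WT range. The log2 change was 0.01 (95% interval -0.41 to 0.44, limma adjusted p = 0.976). Il7r is also active in T cells. The 14 genes of the T cell and thymocyte list summed to 43.5 to 53.4 FPKM in KO and 40.2 to 54.9 FPKM in WT, and Ptcra, which marks immature thymocytes, was at 0 in all 3 KO libraries and in WT replicates 1 and 3.

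**Figure D2:**
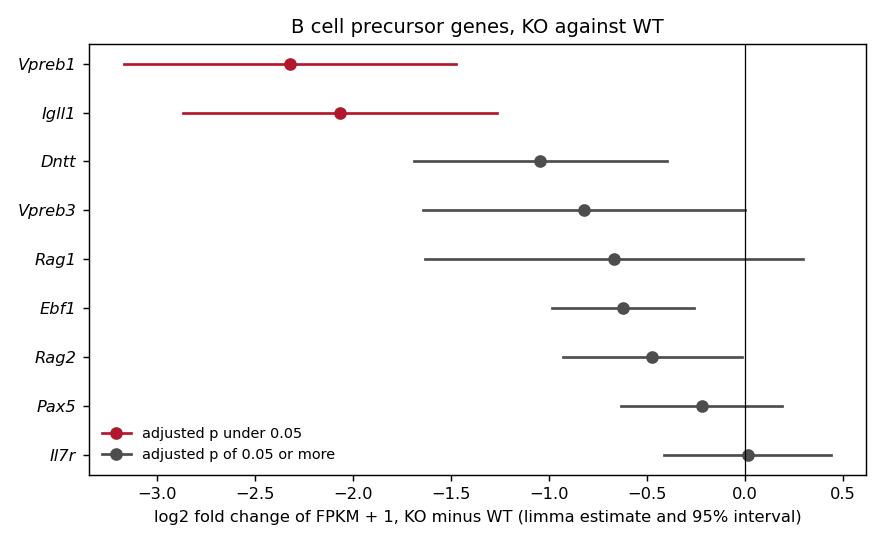
Log2 fold change of FPKM + 1 (horizontal axis, KO minus WT) with its 95% interval from limma for each of the 9 genes, in red where the adjusted p over all 13619 genes was under 0.05. Vpreb1 at -2.32 and Igll1 at -2.06 are the 2 red genes, and Il7r sits at 0.01.

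The order of the levels differed between the groups. In KO the mean FPKM ranked Vpreb3 (35.1), Pax5 (8.44), Il7r (7.05), Dntt (5.18), Rag1 (5.10), Vpreb1 (3.54), Ebf1 (2.82), Igll1 (2.77) and Rag2 (1.02). In WT the order was Vpreb3 (58.2), Vpreb1 (21.5), Igll1 (14.7), Dntt (12), Pax5 (10.1), Rag1 (9.79), Il7r (7.13), Ebf1 (4.94) and Rag2 (1.83). Vpreb1 was thus the sixth of the 9 genes in KO and the second in WT. In KO the ranges over the 3 libraries set Vpreb3, Pax5, Il7r and Dntt apart in that order, Dntt to Igll1 each overlapped the next gene, and Rag2 lay below. In WT the ranges of Vpreb3 and Vpreb1, and of Ebf1 and Rag2, did not overlap, while those of all other neighbours did.

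The precursor genes were set against 6 pan-B genes, which are active from the pro-B cell to the mature B cell. Whether all B cells or only early stages were fewer was not tested, because whole tissue mixes cell number and RNA per cell. Of the 6 pan-B genes, 0 were called in either direction (0 higher and 1 lower with array weights). Their median log2 change was -0.15. That median depended on the libraries: it was -0.42 without KO replicate 1, -0.07 without KO replicate 2, 0.06 without KO replicate 3, -0.07 without WT replicate 2 and -0.35 without KO replicate 1 and WT replicate 2 together. Cd79a, a signalling chain of the receptor, averaged 99.5 ± 33.3 FPKM in KO and 105 ± 13.8 FPKM in WT (SD, n = 3 each; log2 change -0.12, 95% interval -0.70 to 0.46). Blnk, an adaptor of pre-B receptor signalling, was lower in all KO libraries, at 4.12 to 6.12 FPKM, against 6.58 to 7.87 FPKM in WT, and did not pass (limma adjusted p = 0.159). The tetraspanin gene Cd37 had a log2 change of 0.26 and the receptor gene Cd72 one of -0.19.

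Within each library, the level of a precursor gene was then taken relative to the mean of the 6 pan-B genes on the log2(FPKM + 1) scale. Relative to them, Vpreb1 stood at -3.63, -2.22 and -3.04 in KO libraries 1, 2 and 3 and at -0.58, -0.43 and -1.24 in WT libraries 1, 2 and 3. The difference was -2.21, close to the -2.32 without this scaling. The differences were -1.96 for Igll1, -0.94 for Dntt and -0.71 for Vpreb3, and for all 4 genes the groups did not overlap. Each had a two-sided exact permutation p of 0.1, the smallest that 3 against 3 libraries can give. With 1 library left out, the difference ran from -2.58 to -1.88 for Vpreb1, -2.30 to -1.67 for Igll1, -1.14 to -0.73 for Dntt and -0.91 to -0.58 for Vpreb3. Without KO replicate 1 and WT replicate 2 together it was -1.72 for Vpreb1, -1.61 for Igll1, -0.70 for Dntt and -0.83 for Vpreb3. The other 5 genes overlapped, with differences of -0.56 for Rag1, -0.51 for Ebf1, -0.36 for Rag2, -0.11 for Pax5 and 0.12 for Il7r (exact permutation p = 0.2 to 0.7). The B cell marker Ms4a1, which encodes CD20 of mature B cells, lay higher relative to the pan-B genes in every KO library. The difference was 0.48 (exact permutation p = 0.1). No other gene of the mature B cell list was set against the pan-B genes, and no library was left out for Ms4a1. Its FPKM overlapped between groups, at 10.25 to 16.06 in KO and 8.25 to 10.6 in WT.

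**Figure D3:**
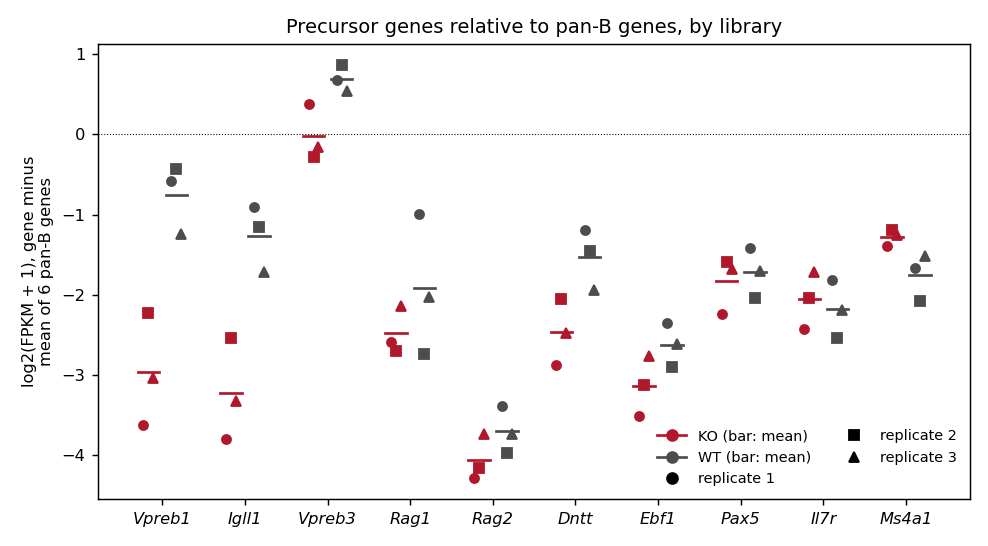
Level of each precursor gene and of Ms4a1 minus the mean of 6 pan-B genes, in log2(FPKM + 1) units, with KO libraries (red) left of WT libraries (grey), 1 point per library and a bar for the group mean. Vpreb1 and Igll1 lie lower in every KO library, while Pax5 and Il7r overlap.

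Of 12 genes of mature B cells, 0 were called in either direction (5 higher and 0 lower with array weights) and 2 had a log2 change below 0, with a median of 0.23, which ran from 0.13 without KO replicate 2 to 0.36 without KO replicate 3. Cr2, a complement receptor, averaged 2.03 ± 0.373 FPKM in KO and 1.30 ± 0.140 FPKM in WT (log2 change 0.39, limma adjusted p = 0.178). Ighd, the heavy chain of IgD, averaged 60.9 ± 14.1 FPKM in KO and 43.0 ± 4.56 FPKM in WT (log2 change 0.47, limma adjusted p = 0.236). Ms4a1 averaged 13.0 ± 2.92 FPKM in KO and 9.75 ± 1.30 FPKM in WT, and Cd22 11.3 ± 2.45 FPKM in KO and 8.95 ± 0.521 FPKM in WT (SD, n = 3 each).

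The list of the pre-B receptor without the 9 genes held Vpreb2, Ighm, Cd79a and Cd79b, of which Vpreb2 fell. Ighm, the mu heavy chain made by most B cells from the pre-B stage on and by IgM plasma cells, had 427, 1152 and 311 FPKM in KO libraries 1, 2 and 3 and 1222, 2048 and 1172 FPKM in WT libraries 1, 2 and 3. KO replicate 2 lay just under the lowest WT library, and the log2 change of -1.42 did not pass (95% interval -2.61 to -0.22, limma adjusted p = 0.169). Relative to the pan-B genes the groups overlapped, with a difference of -1.31 (exact permutation p = 0.3). Of 12 genes of pre-B receptor signalling 0 were called (2 higher and 1 lower with array weights), with a median log2 change of 0.04. Among those with the smallest p, Blnk was lower and the phosphatase gene Ptpn6 (log2 change 0.38), the phospholipase gene Plcg2 (0.42) and Pik3cd (0.31) were higher in every KO library, without passing. Of 7 plasma cell genes 0 rose and 1 fell, Sdc1, which encodes the surface proteoglycan syndecan-1. It averaged 5.90 ± 1.14 FPKM in KO and 13.7 ± 2.73 FPKM in WT (SD, n = 3 each; log2 change -1.09, limma adjusted p = 0.0287). Its call was lost without any single library except WT replicate 3 (limma adjusted p = 0.0587 to 0.101), and without KO replicate 1 and WT replicate 2 together (0.0648). The gene with the next lowest p was Xbp1, a transcription factor of secretory cells, which was higher in every KO library and did not pass (log2 change 0.60, limma adjusted p = 0.0632). It passed with the length trend removed, with array weights and with voom. Prdm1, a repressor active in plasma cells, and Mzb1, a chaperone of marginal zone and plasma cells, were lower in every KO library. Their log2 changes of -0.58 and -0.65 did not pass. Prdm1, with a KO mean of 0.901 FPKM, passed the filter on low values only through its WT levels.

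**Figure D4:**
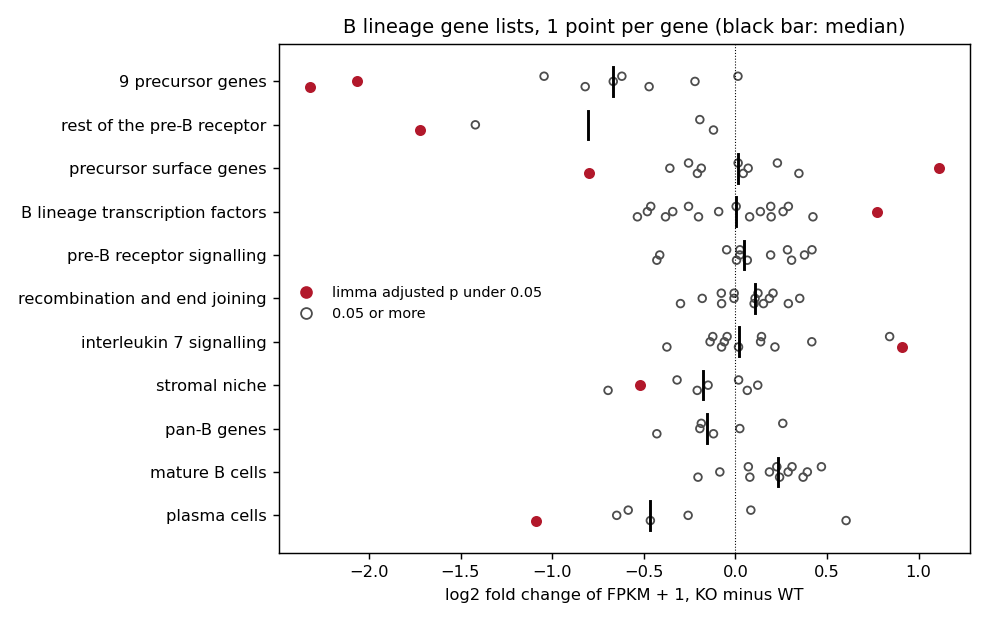
Log2 fold change of FPKM + 1 (horizontal axis, KO minus WT) of the 9 precursor genes and of genes in 10 other lists (rows), 1 point per gene, filled red where the limma adjusted p was under 0.05, with a black bar at the list median. The points furthest to the left are Vpreb1, Igll1 and Vpreb2, and the median of the mature B cell list lies at 0.23.

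Among 12 other genes that mark precursor stages, 11 passed the filter, 1 fell and 1 rose, with a median of 0.01 (-0.25 without KO replicate 1 and WT replicate 2). Enpep, the aminopeptidase known as BP-1 on mouse pre-B cells, was at 1.19, 0.903 and 0.970 FPKM in KO libraries 1, 2 and 3 and at 3.23, 2.03 and 2.37 FPKM in WT libraries 1, 2 and 3 (log2 change -0.80, limma adjusted p = 0.0422). The call was lost when any library was left out. Bst1, the ectoenzyme known as BP-3, rose to 19.6 ± 2.75 FPKM in KO, against 8.54 ± 1.10 FPKM in WT (SD, n = 3 each; log2 change 1.11, limma adjusted p = 0.016). Bst1 is also active in myeloid cells. Of 10 neutrophil lineage genes 3 rose, Ctsg, Mpo and Prtn3, and 0 were called lower, against 1.34% of all genes called higher. The list median was 0.65, and log2 changes of the genes not called ran from -0.03 to 1.18. The Ctsg call was lost without WT replicate 1, the Prtn3 call without any library but WT replicate 2, and the Mpo call without any of the 6. The Bst1 call was lost without KO replicate 1, KO replicate 2 or WT replicate 1 (limma adjusted p = 0.0528 to 0.0728), and without KO replicate 1 and WT replicate 2 together (0.0557). The part of neutrophils in the Bst1 level was not tested. Spn, which encodes CD43 of pro-B and many other blood cells, was higher and Il2ra, which encodes CD25 of pre-B and T cells, lower in every KO library, with log2 changes of 0.35 and -0.36. Neither passed, but Il2ra did with array weights. Il2ra, with a KO mean of 0.801 FPKM, passed the filter on low values only through its WT levels. Cd93 and Kit, surface receptors of early progenitors, had log2 changes of -0.26 and 0.23 and did not pass.

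Of 18 other transcription factors of the lineage, 17 passed the filter. With array weights 3 were called higher and 6 lower, and with the length trend removed 2 higher and 0 lower. Over all 13619 genes, array weights called 1551 higher and 1803 lower. In the fit as reported 1 of the factors rose and 0 fell, with a median of 0.00. The gene that rose was Gfi1, a repressor also active in neutrophil precursors, at 16.8 ± 0.792 FPKM in KO and 9.38 ± 0.252 FPKM in WT (SD, n = 3 each; log2 change 0.78, limma adjusted p = 0.0148), and its call was lost without KO replicate 2 or WT replicate 1 (limma adjusted p = 0.0732 and 0.0671). Foxo1, which acts on the Rag genes, Irf4 and the B cell coactivator gene Pou2af1 lay lower in every KO library and did not pass, with log2 changes of -0.38, -0.53 and -0.46 (limma adjusted p = 0.124 to 0.181). In all, 3 of the 17 lay lower in every KO library, against 13.7% of all genes, and 5 of the 17, among them Gfi1, lay higher, against 14.7% of all genes. Of 14 genes of recombination and DNA end joining other than Rag1, Rag2 and Dntt, 0 were called, and the median was 0.10. The 4 with the lowest p were the end-joining ligase gene Lig4 (log2 change -0.30), the Ku subunit gene Xrcc5 (-0.18, called with array weights), the ligase partner gene Xrcc4 (0.21) and Dclre1c (0.35), which encodes the nuclease Artemis. Of the list, 6 had a log2 change below 0, 1 lay lower and 1 higher in every KO library.

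Interleukin 7 is the ligand of the receptor that Il7r encodes part of, and in marrow it comes from stromal cells. Il7 was below the filter on low values. It stood at 0.554, 0.395 and 0.418 FPKM in KO libraries 1, 2 and 3 and at 1.17, 1.03 and 0.959 FPKM in WT libraries 1, 2 and 3. The groups did not overlap, with p = 0.1 in a two-sided exact permutation test. Of 15 genes of interleukin 7 signalling 13 passed the filter and 1 rose, the receptor kinase gene Jak3 (14.2 ± 1.21 FPKM in KO, 7.22 ± 1.69 FPKM in WT, SD, n = 3 each; log2 change 0.91, limma adjusted p = 0.0343). That call was lost when any library was left out. With array weights, 3 genes of this list were called higher and 0 lower. Pim1, a kinase gene, had the next lowest p, was higher in every KO library and did not pass (log2 change 0.84, limma adjusted p = 0.0536), but passed with the length trend removed and with array weights. Of 9 stromal niche genes 8 passed the filter and Igf1, a growth factor, fell (log2 change -0.52, limma adjusted p = 0.0413), which was also lost when any library was left out. Foxc1, a transcription factor of marrow stromal cells, was lower in every KO library, at 1.45 ± 0.445 FPKM in KO and 2.93 ± 0.318 FPKM in WT (SD, n = 3 each; log2 change -0.69), and did not pass (limma adjusted p = 0.0661), but passed with voom. The chemokine gene Cxcl12 averaged 149 ± 8.88 FPKM in KO and 187 ± 21.3 FPKM in WT, and did not pass (log2 change -0.32, limma adjusted p = 0.302). With array weights, 3 of the stromal niche genes were called lower and 0 higher.

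Lists of other cells of the marrow and of cell division held few calls apart from those of neutrophil, fat and bone genes. Of 12 cell division genes 0 were called (median 0.12), of 14 T cell genes 9 passed the filter and 0 were called (-0.06, and 0.26 without KO replicate 1 and WT replicate 2), and of 7 NK and innate lymphoid genes 6 passed the filter and 0 were called (0.11). Of 8 erythroid genes 0 were called (0.06). With array weights, 1 T cell gene was called higher and 1 lower, and 2 NK and innate lymphoid genes higher and 1 lower. The bone cell list had a median of -1.16 and the adipocyte list one of -1.63.

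The 5 protein-coding genes outside the 9 whose profile over the 6 libraries was most like that of Vpreb1 were Rbp4 (a retinol carrier), Anxa8 (an annexin), Cyp2e1 (a cytochrome P450), Ccn2 (a matrix protein) and Panx3 (a channel of bone and cartilage cells). Their choice by likeness to Vpreb1 fixes their direction, so their log2 changes of -2.45 to -1.88 are a description. Anxa8, Cyp2e1 and Panx3, with KO means under 1 FPKM, passed the filter on low values only through their WT levels. Likeness was the root-mean-square difference between log2(FPKM + 1) values centred on each gene's mean, and it was 0.26 to 0.30 for these genes. Of the 11723 genes compared with Vpreb1, Igll1 was the nearest, at 0.18. Dntt came at rank 157 with 0.67, and the other members lay between 0.97 for Vpreb3 and 1.27 for Il7r. Among the 9 genes the closest pair was Rag2 and Ebf1, at 0.11, followed by Pax5 and Il7r at 0.17, but genes with small changes are close to each other by construction.

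**Figure D5:**
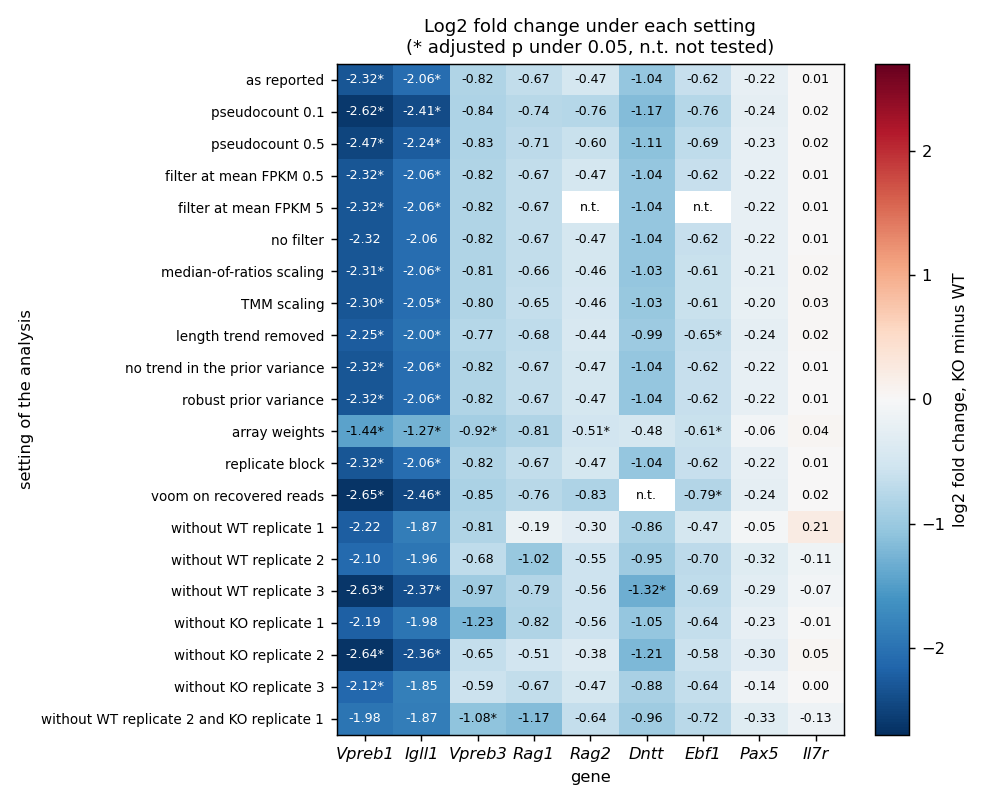
Log2 fold change (colour and printed value, KO minus WT) of the 9 genes (columns) as reported and under each other setting of the analysis (rows), with a star where the adjusted p was under 0.05 and n.t. where a gene was not tested. Vpreb1 and Igll1 stay below -1.2 in every row, with and without a star, while Il7r lies between -0.13 and 0.21.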

How the data were processed

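Bone RNA of 3 KO and 3 WT libraries was analysed from 1 table of FPKM values that the authors deposited for 54532 genes. Per the labels' protocols, Trizol was used for extraction and an Illumina TruSeq kit for the libraries. Bowtie 0.12.2 and build mm10 are named in the submitters' processing notes. The sources used here give no counting tool, annotation, strand use or FPKM scaling. Identifiers were matched to GENCODE M21 (54495 matched, 37 not), which gave symbols, mm10 positions and exon lengths. FPKM times exon length moved in fixed steps. With a tolerance of 0.01 reads, 96.9% of 29600 genes above 0 gave whole reads, and 46.9% of those on chromosome 19 did not.

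Values were analysed as log2(FPKM + 1), which understates changes of low genes. Genes with a mean of at least 1 FPKM were fitted with limma 3.58.1 in R 4.3.3 (moderated variances with a trend), with Benjamini-Hochberg adjustment over all genes and a threshold of 0.05. Alternatives were other pseudocounts, filters and scalings, removal of the trend with exon length, other variance priors, array weights, a replicate block, voom on recovered reads and fits without single libraries or 2 of them. Single values were compared with two-sided exact permutation tests (scipy 1.17.1). Figures were drawn with matplotlib 3.10.9. The genes and lists were chosen with earlier results of these data known, as was the alternative that leaves out 2 libraries. Named genes are the 9, Vpreb2, the called genes of each list, in the lists of B cell stages, signalling, recombination and niche also those next in p (to 4 at most per list), and the 5 genes most like Vpreb1. Cd79a, Ms4a1, Cd22, Il7, Cd93, Kit and Cxcl12 are also named for their roles, and neighbours of Vpreb1 for their position. Planned protein sequences were not used here, and some genes are not reported here.

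The fit was tested on simulated data with a single dispersion of 0.0204 for all genes. It recovered 18% of 1.5-fold, 88% of 2-fold and 98% of 4-fold changes, and 12 of its 164 calls were false. The simulated libraries had no trend with exon length and no genes of larger spread, so these shares need not hold for genes that vary more. Changes that did not pass, small or large, may thus have been missed. Dntt, with a KO mean at 43.2% of the WT mean, did not pass. Chi-square tests of the recovered reads between replicates of a group gave 14.1 to 75.4 per degree of freedom, well above sampling noise. None was thus counted as a repeat sequencing of another library. Technical differences between libraries also raise these values, so they do not show whether libraries came from separate animals.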

Additional observations from a re-analysis of the deposited data

How the results depend on the processing

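The surrogate light chain genes Vpreb1 and Igll1 were lower in KO under every alternative run, with log2 changes of -2.65 to -1.44 and -2.46 to -1.27, but their side of the threshold was not stable. Of the 9 genes, 2 were called lower as reported. Leaving out each library in turn gave 0 to 3. The count was 0 with no filter on low values and 1 without KO replicate 1 and WT replicate 2 together. It was 5 with array weights, which called 1803 of all 13619 genes lower, against 520 as reported. Under the other alternatives it was 2 or 3. Of the 9 genes, 0 were called higher under any alternative. Changes near 0 turned direction. Without 1 library, the log2 change of Il7r ran from -0.11 to 0.21, and was below 0 without KO replicate 1, WT replicate 2 or WT replicate 3. That of Cd79a from -0.37 to 0.077 and that of Cd79b from -0.50 to 0.034. Without KO replicate 1 and WT replicate 2 together, Il7r stood at -0.13. The cause was not tested. Differences from the pan-B genes without libraries were added after the data were seen. Without KO replicate 1 and WT replicate 2 together they ran from -1.72 for Vpreb1 to 0.13 for Il7r. With all libraries they ran from -2.21 to 0.12 for the same 2 genes.

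Over all genes, 183 were higher and 520 lower as reported, and leaving out each library in turn gave 14 to 79 higher and 48 to 344 lower. These counts were 43 and 100 with no filter, 1551 and 1803 with array weights, 86 and 153 without KO replicate 1 and WT replicate 2, and 133 and 232 with a filter at 5 FPKM, where fewer genes are tested and Rag2 and Ebf1 are not. With the length trend removed 481 were higher and 732 lower. The share of calls that were lower in KO was 74.0% as reported, 60.4% with the length trend removed, 53.8% with array weights and 85.0% with the replicate block. With the replicate number as a block 19 genes were higher and 108 lower, and 2 of the 9 genes were called lower. Same-numbered libraries of the 2 groups did not deviate together (correlations of -0.49, -0.27 and 0.16). KO replicate 1 and WT replicate 2 did, at 0.54, so the libraries that stood apart weigh on these values. Whether the numbers pair the libraries therefore cannot be told. Depth limits Rag2 most, which rests on 46 to 73 reads in KO libraries and 90 to 179 reads in WT libraries.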
